A study of Mus musculus with 6 samples.

Results

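miR-31 is a microRNA (miRNA, a short RNA that lowers the output of messenger RNAs it pairs with) made from a single hairpin that yields a 5p and a 3p strand. The 2 entries mmu-miR-31-5p and mmu-miR-31-3p were taken by name from a deposited table of 1542 mature sequences counted in kidney small RNA libraries. Both strands were among the 451 sequences with enough counts to be tested. They were chosen by the lower level of miR-31-5p in the lupus-prone strain in earlier results from the same libraries, and for the reported place of this miRNA in lupus lymphocytes. The strain difference of miR-31 is therefore given as a description, with no test.

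All 6 libraries came from kidneys of female mice aged 17 weeks. The 3 control libraries were from C57BL/6 mice, a wild-type inbred strain. The 3 others were from MRL/lpr mice, labelled MRL/MpJ-Fas<lpr>/J, in which the lpr allele disables the death receptor Fas on the MRL background and a spontaneous lupus-like disease with nephritis develops. The groups differ in strain background, Fas allele and disease at once, which cannot be told apart. The MRL strain with intact Fas was not analysed here. Whether the libraries come from different animals is not stated in the labels, so SDs and p-values measure the spread between libraries, which may be technical.

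In T cells, miR-31 is known as a brake on FOXP3, the transcription factor of regulatory T cells, and as a promoter of interleukin-2 production through repression of RhoA. Earlier work found miR-31 raised in splenic lymphocytes of several lupus mouse models, together with the miR-182, miR-96 and miR-183 cluster and miR-155, and found it lowered in T cells of patients with lupus. Outside lymphocytes it is known from epithelia, where NF-κB and STAT3 signalling induce it, and from muscle precursor cells. Whole kidney mixes tubule, vessel and stromal cells with any infiltrating leukocytes, so fewer cells that make miR-31 and less miR-31 per cell cannot be told apart.

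The mature strands are printed 5′ to 3′ as RefSeq lists them (GRCm38.p6), to show which bases would pair with targets. Capitals mark the seed, bases 2 to 8, the stretch that leads target recognition.
miR-31-5p: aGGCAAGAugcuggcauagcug
miR-31-3p: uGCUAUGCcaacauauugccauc

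Both strands were found in the RefSeq table, which holds 1679 mature mouse miRNA names. No other name there carried the GGCAAGA seed of miR-31-5p or the GCUAUGC seed of miR-31-3p, and 0 others matched either strand over bases 2 to 7. The longest run of bases that miR-31-5p shared with another listed mature miRNA was 9, with miR-193a-5p and miR-1941-5p. For miR-31-3p it was 8, with miR-6958-3p. The strands are 22 and 23 bases long, with 54.5% and 43.5% G and C. miR-31-5p starts with A, as do 25.6% of listed names, and miR-31-3p starts with U, as do 40.9%.

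The hairpin, on the minus strand at chr4:88910557-88910662 (GRCm38.p6), is shown because the balance of its arms is described further on. Capitals mark the 2 mature strands.
Mir31: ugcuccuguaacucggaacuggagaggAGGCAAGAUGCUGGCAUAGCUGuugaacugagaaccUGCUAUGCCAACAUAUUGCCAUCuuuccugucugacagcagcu

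miR-31-5p takes bases 28 to 49 of the 106-base hairpin and miR-31-3p bases 64 to 86, with 14 loop bases between them. In the minimum-energy fold (RNAfold, -48.7 kcal/mol) 17 of the 22 bases of the 5p strand paired with the 3p strand. On the chromosome the 5p strand lies at 88910614 to 88910635 and the 3p strand at 88910577 to 88910599.

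In the GENCODE M21 annotation of GRCm38, the hairpin lies within an exon (88909855 to 88910710) of the long non-coding RNA gene AL805899.1, on the same strand. The nearest gene on the lower-coordinate side is Ifne, the epithelial type I interferon, 30.4 kb away. Beyond Ifne lie the other type I interferon genes: with Ifne, 17 protein-coding genes with an Ifn symbol fell between 88522025 and 88880201. Within 2 Mb there were 2 other annotated miRNA hairpins, and 1 of them, Mir491, has strands in the table. The count of miR-491-5p was 12, 27 and 23 in C57BL/6 replicates 1, 2 and 3. In MRL/lpr replicates 1, 2 and 3 it was 16, 11 and 7. Its log2 fold change (MRL/lpr over C57BL/6) was -0.90 ± 0.43 SE and did not pass (quasi-likelihood test of edgeR, adjusted p = 0.254 after Benjamini-Hochberg correction). miR-491-3p had 2 counts in 1 MRL/lpr library and none elsewhere, and was not tested.

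miR-31-5p had 369, 603 and 477 counts in C57BL/6 replicates 1, 2 and 3. It had 311, 193 and 296 counts in MRL/lpr replicates 1, 2 and 3. The counting error of these values runs from 4.07% to 7.20%, which covers counting only, since PCR copies may be among the counts. In CPM, counts relative to a common library total after TMM scaling, the C57BL/6 values were 75.5, 96.8 and 74.3. The MRL/lpr values were 43.9, 37.4 and 49.0 CPM. Each C57BL/6 library lay above each MRL/lpr library, and the lowest C57BL/6 value was 1.52 times the highest MRL/lpr value. The C57BL/6 mean was 82.2 ± 12.7 CPM and the MRL/lpr mean 43.4 ± 5.78 (SD, n = 3). The fitted log2 fold change was -0.92 ± 0.23 SE, a level 1.89-fold lower in MRL/lpr.

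The other strand, miR-31-3p, gave the same order at lower counts. Its counts were 163, 370 and 227 in C57BL/6 replicates 1, 2 and 3. They were 186, 99 and 108 in MRL/lpr replicates 1, 2 and 3. Scaled levels were 33.3, 59.4 and 35.4 CPM in C57BL/6. They were 26.3, 19.2 and 17.9 CPM in MRL/lpr. The strains again did not overlap, but the gap was narrower: the lowest C57BL/6 value was 1.27 times the highest MRL/lpr value. Means were 42.7 ± 14.5 and 21.1 ± 4.50 CPM (SD, n = 3), with a log2 fold change of -1.01 ± 0.29 SE, or 2.02-fold lower in MRL/lpr. Both members were thus lower without overlap in the contrast that chose them, where 28.8% of all tested miRNAs did not overlap in either direction and 14.9% were lower without overlap. Among the 451 tested, 27 had a lower log2 fold change than miR-31-5p and 20 had a lower one than miR-31-3p.

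**Figure D1:**
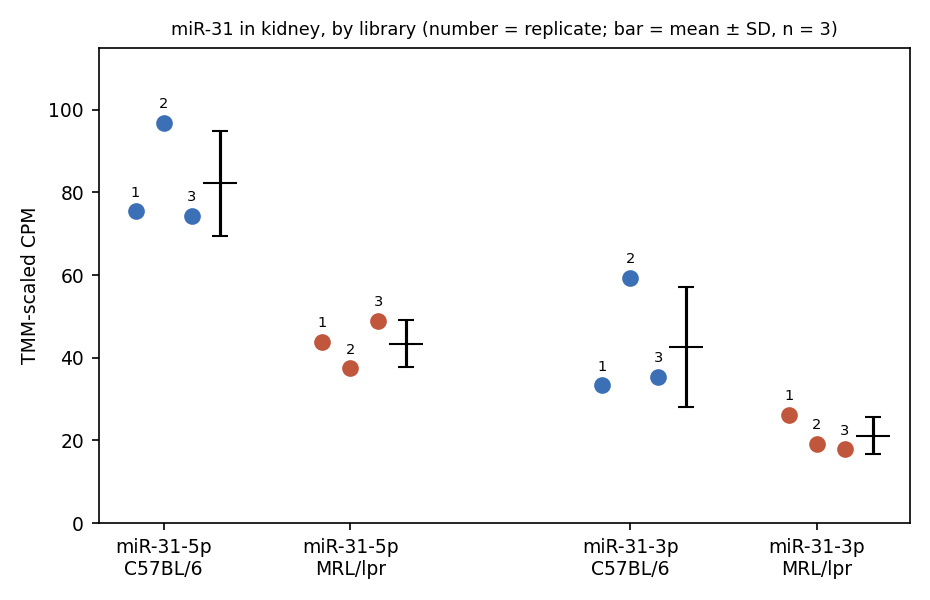
TMM-scaled CPM (y axis) of miR-31-5p and miR-31-3p in each of the 3 C57BL/6 (blue) and 3 MRL/lpr (red) libraries, numbered by replicate, with the mean ± SD beside them. All C57BL/6 points lie above all MRL/lpr points for each strand, and C57BL/6 replicate 2 is the highest for both, at 96.8 and 59.4 CPM.

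The size of the difference moved with the scaling but kept its direction. With library size alone, which moves the median log2 fold change of all tested miRNAs from -0.027 to 0.12, miR-31-5p stood at -0.77 and miR-31-3p at -0.87. Over 17 alternative settings, the log2 fold change of miR-31-5p ran from -1.03 to -0.76 and that of miR-31-3p from -1.21 to -0.68. Both strands were nearest to 0 without C57BL/6 replicate 2.

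**Figure D2:**
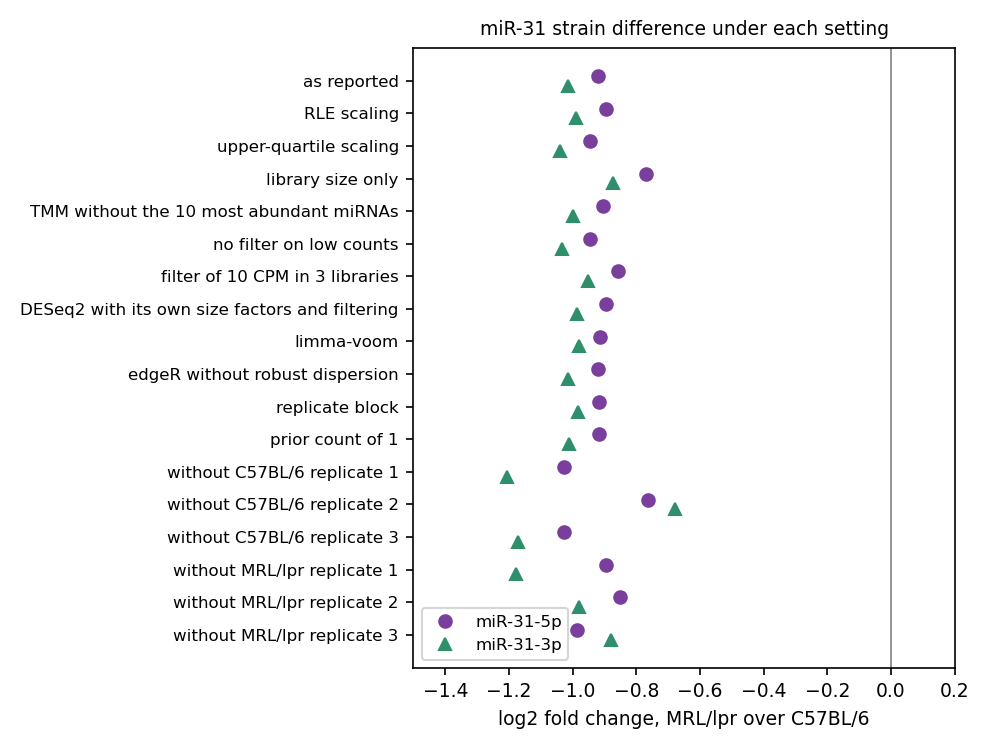
Log2 fold change (x axis, MRL/lpr over C57BL/6) of miR-31-5p (circles) and miR-31-3p (triangles) as reported and under each of 17 alternative settings (rows). All points lie below 0, and the points nearest to 0 for both strands, at -0.76 and -0.68, are those without C57BL/6 replicate 2.

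miR-31 was a miRNA of middle abundance in these kidneys. By count, miR-31-5p ranked 162, 158 and 161 among all entries in C57BL/6 replicates 1, 2 and 3. It ranked 191, 201 and 187 in the MRL/lpr libraries, out of 877 to 954 detected entries in a library. Ranks use no scaling factor. They did not overlap between the strains either, but they come from the same counts that chose miR-31-5p, so this is no separate support. miR-31-3p ranked 206, 180 and 200 in C57BL/6. It ranked 224, 247 and 246 in MRL/lpr. Among the 412 tested miRNAs with a miRBase name, miR-31-5p was the 168th by mean CPM, between miR-190a-5p (64.6 CPM) and miR-145a-3p (60.8 CPM). Those neighbours did not differ from it beyond their spread over the 6 libraries: miR-190a-5p ran from 30.4 to 89.6 CPM, miR-145a-3p from 37.4 to 83.5 CPM and miR-31-5p from 37.4 to 96.8 CPM. miR-31-3p was the 202nd, at 31.9 CPM. Ligation favours some RNA ends, so levels of different miRNAs compare less well than levels of 1 miRNA between libraries.

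miR-31-5p varied little among libraries of a strain. Its coefficient of variation was 15.4% in C57BL/6 and 13.3% in MRL/lpr, where the medians over all tested miRNAs were 24.7% and 18.7%. In C57BL/6 29.7% of tested miRNAs had a smaller value, and in MRL/lpr 30.6% did. miR-31-3p varied more, with 34.0% and 21.3%, and 67.0% and 58.1% of tested miRNAs had smaller values.

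Both strands of the hairpin were well represented, with the 5p strand in the majority in every library. The 5p share of all miR-31 counts was 69.4% (95% Wilson interval 65.3 to 73.1), 62.0% (58.9 to 65.0) and 67.8% (64.2 to 71.1) in C57BL/6 replicates 1, 2 and 3. In MRL/lpr replicates 1, 2 and 3 it was 62.6% (58.2 to 66.7), 66.1% (60.5 to 71.3) and 73.3% (68.7 to 77.3). The shares of the strains overlapped, with a C57BL/6 mean of 66.4% ± 3.89 and an MRL/lpr mean of 67.3% ± 5.45 (SD, n = 3). Libraries of the same strain differed beyond counting error: the intervals of C57BL/6 replicates 1 and 2 do not meet, nor do those of MRL/lpr replicates 1 and 3. The share is a ratio within a library and does not depend on the scaling.

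For most hairpins 1 strand took nearly all counts, and miR-31 was among the more even ones. Over the 105 hairpins with both strands tested, the major strand held a median of 94.8% of counts, against 66.1% for miR-31, and 11 hairpins were more even. The log2 fold changes of the miR-31 strands differed by 0.095, while the median difference between strands over the 105 hairpins was 0.26. Summed over both strands, miR-31 averaged 125 ± 27.2 CPM in the C57BL/6 libraries and 64.6 ± 7.04 in the MRL/lpr libraries (SD, n = 3).

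**Figure D3:**
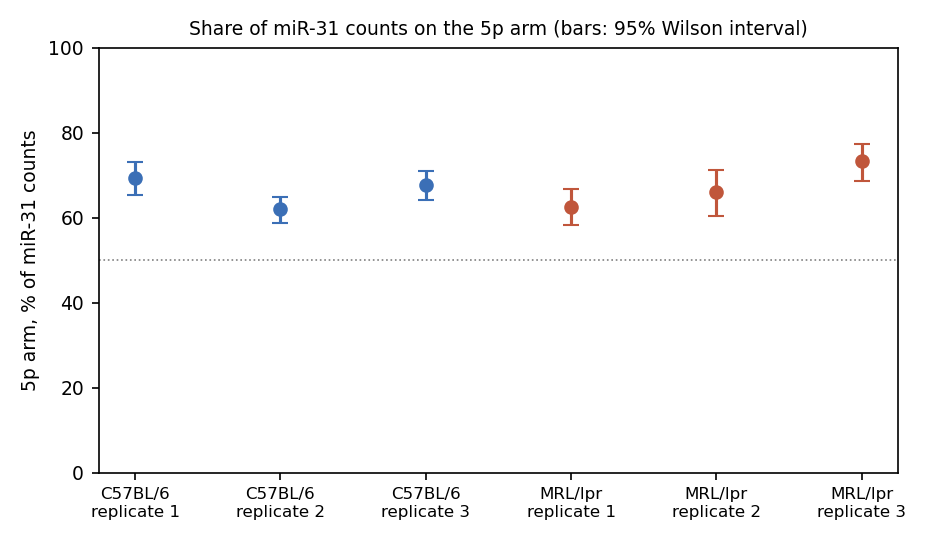
Share of miR-31 counts on the 5p strand (y axis, percent) in each library, blue for C57BL/6 and red for MRL/lpr, with 95% Wilson intervals for counting error. The shares lie between 62.0% and 73.3%, all above the dotted 50% line, and the strains overlap.

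Of the miRNAs reported to rise with miR-31 in splenic lymphocytes of lupus mice, 1 rose in MRL/lpr kidney, and miR-31 was not higher with it. All 6 others on that list were tested, of which 1 was higher, none was lower and 5 did not pass (edgeR, adjusted p threshold 0.05 over all miRNAs tested; limma-voom also called 1 as higher, and DESeq2 called 1 as higher and 2 as lower, miR-127-3p and miR-379-5p). Over all 451 miRNAs tested, 6.21% passed in either direction, 4.21% higher and 2% lower. In DESeq2 8.33% of all miRNAs tested passed, 5.23% higher and 3.1% lower, and in limma-voom 4.66%, 3.33% higher and 1.33% lower. In edgeR without C57BL/6 replicate 2 11.5% passed, 8.94% higher and 2.55% lower. The members of this and the next lists were set from general knowledge of the literature, with no reference checked. Without C57BL/6 replicate 2, a library described further on, the count was again 1 of 6. The list's median log2 fold change was -0.13, beside -0.027 over all tested miRNAs. Of the 6, 1 lay above 0 and 5 below, where 219 of all 451 lay above 0 and 232 below.

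The 1 that rose was miR-155-5p, which activated lymphocytes and macrophages induce. It had 57.1, 102 and 50.9 CPM in C57BL/6 replicates 1, 2 and 3. It had 174, 145 and 200.1 CPM in MRL/lpr replicates 1, 2 and 3. All MRL/lpr libraries were above all C57BL/6 libraries, the reverse of miR-31, with a log2 fold change of 1.30 ± 0.30 SE (edgeR adjusted p = 0.0331). The call held in 11 of 17 alternatives, over which the adjusted p ran from 3.05e-04 to 0.156. Of the 6 losses, 5 were the fits without C57BL/6 replicate 1 (adjusted p = 0.109) or 3 (0.103), without MRL/lpr replicate 1 (0.0580) or 3 (0.156) and without robust dispersion (0.0528).

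The cluster of miR-182, miR-96 and miR-183, transcribed together and raised in activated lymphocytes, gave small differences with wide overlap. In C57BL/6 libraries miR-182-5p had 192 ± 31.9 CPM, against 183 ± 35.4 in MRL/lpr. miR-96-5p had 278 ± 68.1 and 255 ± 36.9 CPM. miR-183-5p had 208 ± 24.7 and 189 ± 5.71 CPM (SD, n = 3). Their log2 fold changes were -0.070, -0.12 and -0.14, with edgeR adjusted p of 0.886, 0.786 and 0.716.

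The other listed pair, miR-127-3p and miR-379-5p, belongs to the imprinted Dlk1-Dio3 cluster. miR-127-3p had 245, 318 and 218 CPM in the C57BL/6 libraries. It had 124, 170 and 101 CPM in the MRL/lpr libraries. Like miR-31, its strains did not overlap and MRL/lpr was lower, but it missed the threshold (log2 fold change -0.98 ± 0.26 SE, edgeR adjusted p = 0.0503) and passed in 7 of 17 alternatives. miR-379-5p had 79.4 ± 38.5 and 30.4 ± 11.0 CPM (SD, n = 3; log2 fold change -1.39, edgeR adjusted p = 0.0662), and passed in 6 of 17 alternatives.

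Of 5 miRNAs listed as raised in CD4+ T cells in lupus, 0 passed in edgeR, where 1 had an unadjusted p under 0.05, and 0 in limma-voom. DESeq2 called 2, miR-148a-3p and miR-29b-3p, both higher. Without C57BL/6 replicate 2, edgeR called miR-21a-5p and miR-148a-3p, both higher, where 8.94% of all miRNAs tested were called higher. These 2 were highest in that library among the C57BL/6 libraries, so leaving it out raises them by construction. miR-21a-5p and miR-148a-3p are known to lower the DNA methyltransferase DNMT1. They had 15378 ± 9627 and 106 ± 78.2 CPM in C57BL/6, against 18279 ± 2419 and 254 ± 90.6 CPM in MRL/lpr (SD, n = 3; edgeR adjusted p = 0.766 and 0.243). miR-126a-3p, the endothelial miRNA, had 75978 ± 6956 and 62413 ± 8438 CPM (edgeR adjusted p = 0.285). miR-29b-3p, which represses collagen messages, did not overlap between the strains, at 994 ± 154 and 1530 ± 106 CPM, but missed the threshold (edgeR adjusted p = 0.0731). miR-224-5p had 5.16 ± 2.22 and 4.25 ± 0.726 CPM (edgeR adjusted p = 0.729).

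Besides miR-31, 5 miRNAs were listed as lowered in T cells or blood cells in lupus, and 0 passed in kidney in edgeR, with 1 at an unadjusted p under 0.05, and 0 in limma-voom. DESeq2 called 2, both strands of miR-142a, as higher. Without C57BL/6 replicate 2, edgeR called 3 as higher, these strands and miR-146a-5p, where 8.94% of all miRNAs tested were called higher. All 3 were highest in that library among the C57BL/6 libraries, so leaving it out raises them by construction. Of the 5, 4 had log2 fold changes above 0, unlike miR-31. miR-142a marks cells of the blood lineage. miR-142a-3p had 34.4, 88.8 and 25.7 CPM in the C57BL/6 libraries. It had 145, 111 and 151 CPM in the MRL/lpr libraries. Its strains did not overlap (log2 fold change 1.45 ± 0.45 SE, edgeR adjusted p = 0.0943). For miR-142a-5p the log2 fold change was 1.21 (edgeR adjusted p = 0.245). miR-146a-5p, which feeds back on NF-κB signalling, was widely spread in C57BL/6, at 5010, 25568 and 4764 CPM in replicates 1, 2 and 3 (edgeR adjusted p = 0.721). miR-125a-5p and miR-145a-5p had log2 fold changes of 0.21 and 0.12 (edgeR adjusted p = 0.629 and 0.738).

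**Figure D4:**
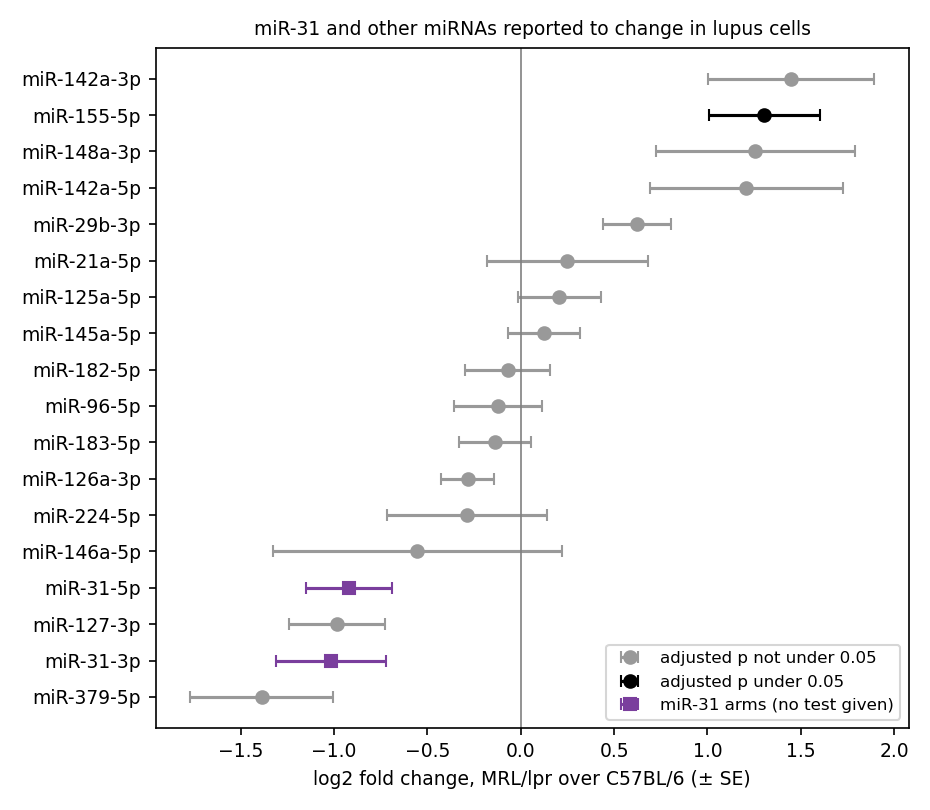
Log2 fold change (x axis, MRL/lpr over C57BL/6, ± SE) of the miR-31 strands (squares, no test given) and the 16 other miRNAs of the 3 lists on lupus cells (circles, black where the edgeR adjusted p was under 0.05). miR-155-5p at 1.30 is the 1 miRNA that passed, on the opposite side of 0 from miR-31-5p at -0.92.

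Among 4 other tested miRNAs of a human regulatory T cell signature that includes miR-31, 0 passed in edgeR, DESeq2 and limma-voom, and 0 had an unadjusted p under 0.05 in edgeR. Without C57BL/6 replicate 2, miR-21a-5p passed in edgeR as higher, where 8.94% of all miRNAs tested did. It was highest in that library among the C57BL/6 libraries, so leaving it out raises it by construction. The C57BL/6 level of miR-181c-5p was 1813 ± 317 CPM and its MRL/lpr level 1777 ± 177. For miR-374b-5p the levels were 187 ± 33.6 and 221 ± 37.3 CPM (SD, n = 3). Of 7 other tested miRNAs that inflammatory signalling induces, miR-155-5p was the 1 that passed, and 3 passed as higher without C57BL/6 replicate 2, where 8.94% of all miRNAs tested did. These 3, miR-155-5p, miR-21a-5p and miR-146a-5p, were highest in that library among the C57BL/6 libraries, so that count is raised by construction. In that list 4 of the 7 did not overlap, 2 higher and 2 lower in MRL/lpr, where 28.8% of all tested miRNAs did not overlap. The 2 higher were miR-155-5p and miR-146b-5p, the latter with a log2 fold change of 0.60 ± 0.24 SE (edgeR adjusted p = 0.175). The 2 lower, like miR-31, were miR-221-3p and miR-222-3p. They had 793 ± 59.6 against 655 ± 23.9 CPM and 507 ± 41.2 against 378 ± 50.8 CPM (SD, n = 3), and did not pass (edgeR adjusted p = 0.385 and 0.245).

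In leukocyte miRNAs C57BL/6 replicate 2 was far above the other controls, and it also held the most miR-31. The 4 leukocyte markers, miR-142a-3p, miR-142a-5p, miR-150-5p and miR-342-3p, summed to 935, 2220 and 1001 CPM in C57BL/6 replicates 1, 2 and 3. All 4 were highest there among the C57BL/6 libraries. Against the mean of the other 2 C57BL/6 libraries, that sum was 2.29-fold, miR-31-5p was 1.29-fold and miR-31-3p was 1.73-fold, where the median named miRNA was 0.977-fold. The myeloid markers miR-223-3p and miR-511-3p with miR-511-5p summed to 4.76-fold, and the 12 tubule epithelium markers to 0.638-fold. The miRNAs that inflammatory signalling induces summed to 3.29-fold and the mesenchymal markers to 1.18-fold. Erythroid markers came to 0.188-fold, stratified epithelium markers to 0.685-fold, endothelial markers to 0.857-fold and muscle markers to 0.929-fold. Within C57BL/6, the library with more leukocyte miRNAs had more of both miR-31 strands, but it also differed in markers of several other cell types. It is a single library, and the part of any cell type in its miR-31 level was not tested.

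Between the strains the log2 fold changes of the leukocyte and myeloid markers differed in sign with all libraries in the fit, but their sums had the same order. The 2 tested myeloid markers had log2 fold changes below 0, like miR-31, with a median of -0.66 (0.82 without C57BL/6 replicate 2). The leukocyte markers summed to 1559 to 2171 CPM in MRL/lpr, above C57BL/6 replicates 1 and 3 and below replicate 2. The myeloid markers summed to 370 to 434 CPM in MRL/lpr. That was also above C57BL/6 replicates 1 and 3, at 243 and 250 CPM, and below replicate 2, at 1173 CPM. The 4 leukocyte markers had log2 fold changes above 0, unlike miR-31, from 0.014 for miR-342-3p to 1.45 for miR-142a-3p. Of the 4, 1 did not overlap, where 28.8% of all tested miRNAs did not, and none was at 0 counts. In edgeR 0 of the 4 passed, with 1 at an unadjusted p under 0.05, in limma-voom 0 passed, and DESeq2 called 2. In those same MRL/lpr libraries miR-31-5p was at 37.4 to 49.0 CPM, under the 74.3 CPM of the lowest C57BL/6 library. Without C57BL/6 replicate 2, the mean of the other C57BL/6 libraries was still 1.72 times the MRL/lpr mean for miR-31-5p and 1.63 times for miR-31-3p. That setting also made 2 of the 4 leukocyte markers pass as higher in MRL/lpr. It leaves out a library singled out for high leukocyte values, so it raises these markers by construction.

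Counts of miR-31-5p were also set against those of 2 leukocyte miRNAs of the same library, which needs no scaling. For each 100 counts of miR-155-5p, there were 132, 94.7 and 146 counts of miR-31-5p in C57BL/6 replicates 1, 2 and 3. In MRL/lpr replicates 1, 2 and 3 there were 25.2, 25.8 and 24.5. The MRL/lpr libraries were nearly equal, with a mean of 25.2 ± 0.661, while the C57BL/6 libraries were spread around 124 ± 26.5 (SD, n = 3). Set against 100 counts of miR-142a-3p, miR-31-5p came to 220, 109 and 289 in C57BL/6. It came to 30.4, 33.8 and 32.4 in MRL/lpr. These partners were picked after they were seen to be higher in MRL/lpr without overlap, and miR-31-5p was lower without overlap. That the ratios of the strains do not overlap is therefore fixed by the choice and supports nothing; the values describe the balance of these miRNAs in each library.

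**Figure D5:**
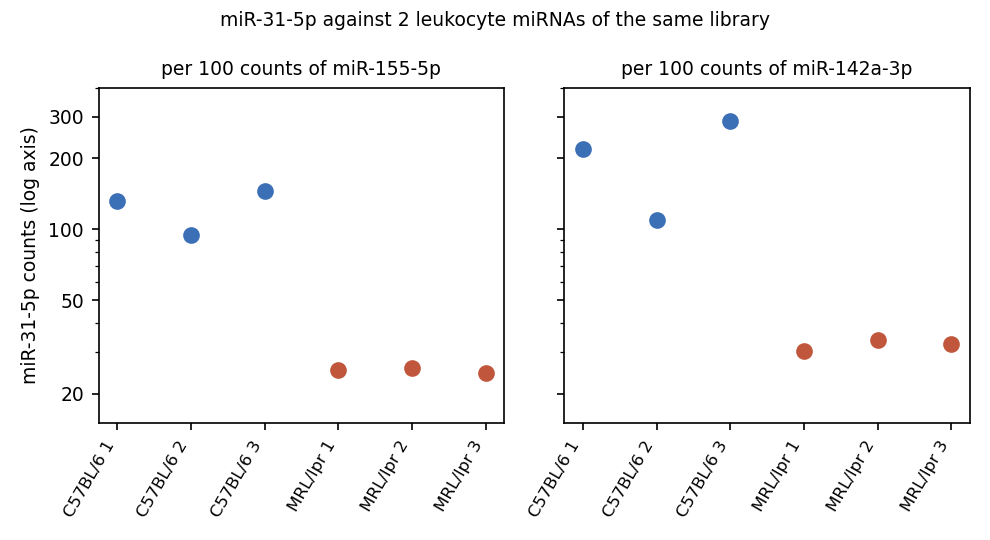
Counts of miR-31-5p for each 100 counts of miR-155-5p (left) or miR-142a-3p (right) in the same library, on a log axis, with C57BL/6 in blue and MRL/lpr in red. The MRL/lpr libraries lie between 24.5 and 25.8 on the left and between 30.4 and 33.8 on the right, under all C57BL/6 libraries, which the choice of these partners fixes.

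Markers of the other kidney cell types were present in all libraries. The 12 tubule epithelium markers, led by miR-429-3p and miR-192-5p, summed to 75003 to 118639 CPM in C57BL/6 and 114016 to 125054 CPM in MRL/lpr. Of the 11 tested, 2 rose, miR-204-5p and miR-802-5p, and none fell (edgeR), where 4.21% of all miRNAs tested rose and 2% fell. miR-215-5p, the 1 marker too low to be tested, had at most 5 counts in a library. Endothelial markers summed to 69345 to 82904 CPM in C57BL/6 and 58050 to 73057 CPM in MRL/lpr. For mesenchymal markers the ranges were 30294 to 37882 and 24540 to 31646 CPM. Muscle markers gave 164 to 232 and 121 to 172 CPM. The mean sums of these 3 groups were lower in MRL/lpr, like miR-31, with overlapping ranges. Most of each sum was 1 miRNA: miR-126a-3p, miR-143-3p and miR-1a-3p, in that order. In the other direction went miR-145a-5p and miR-133a-3p, with log2 fold changes of 0.12 and 0.18. Without C57BL/6 replicate 2 the mesenchymal median log2 fold change was 0.095, and the endothelial and muscle medians were -0.18 and -0.15. In edgeR, DESeq2 and limma-voom 0 members of these 3 groups passed, and 0 had an unadjusted p under 0.05 in edgeR. The part of these groups in the miR-31 difference was not tested. The stratified epithelium and urothelium markers miR-203-3p, miR-205-5p and miR-184-3p summed to 158 to 251 CPM in C57BL/6 and 275 to 396 CPM in MRL/lpr, the opposite direction to miR-31. Nearly all of that sum was miR-203-3p, while the low miR-205-5p went the same way as miR-31, at 5.38 ± 6.27 and 1.69 ± 2.33 CPM with wide overlap (SD, n = 3). The low miR-184-3p went the opposite way, at 0.907 ± 1.31 and 3.73 ± 2.49 CPM, also with overlap. Without C57BL/6 replicate 2, where both were highest among the C57BL/6 libraries, miR-205-5p had a log2 fold change of -0.057 and miR-184-3p passed in edgeR as higher. In edgeR 0 of the 3 passed and 1, miR-203-3p, had an unadjusted p under 0.05, and DESeq2 called it as higher. Erythroid markers summed to 594 to 3496 and 3476 to 4305 CPM. In edgeR, DESeq2 and limma-voom 0 of the 2 tested myeloid and 0 of the 3 tested erythroid markers passed, and 0 had an unadjusted p under 0.05 in edgeR. Without C57BL/6 replicate 2, which was high in myeloid markers, miR-511-3p passed in edgeR as higher, and the myeloid median log2 fold change turned from -0.66 to 0.82. Leaving out that library raises the myeloid markers by construction.

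The miRNAs most like miR-31-5p over the 6 libraries were low in abundance. Likeness was the root mean square distance between log2 CPM profiles, each minus its own mean, with 0.5 CPM added. Of 411 other named miRNAs the closest were miR-381-3p (distance 0.14), miR-1964-3p (0.19), miR-26b-3p (0.21), miR-338-5p (0.23) and miR-195a-3p (0.23), where the median distance was 0.58. All 5 were lower in MRL/lpr by level, from 3.14 to 1.51 CPM for miR-381-3p and from 21.8 to 13.9 CPM for miR-26b-3p, and none passed (edgeR adjusted p from 0.153 to 0.308). Their direction is largely fixed by the choice, since the profile of miR-31-5p that they were matched to holds its strain difference. miR-31-3p, from the same hairpin, was the 10th at 0.25.

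With each strain set to its own mean, so that the strain difference no longer counts, the order changed. The closest to miR-31-5p were then miR-30b-5p (distance 0.094), miR-183-5p (0.095), miR-152-3p (0.095), miR-19b-3p (0.099) and miR-1964-3p (0.11), with a median of 0.31. miR-183-5p is also on the lupus splenocyte list. miR-31-3p was then the 129th, at the same distance of 0.25, while most other profiles came closer than before. In that measure the closest to miR-31-3p, named after their values were seen, were miR-297a-5p (0.040) and miR-467c-5p (0.053), of the families in introns of Sfmbt2. Between the strains both went the opposite way to miR-31-3p, with log2 fold changes of 1.28 and 1.05 (edgeR adjusted p = 0.0371 and 0.0662).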

How the data were processed

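Small RNA from kidney was sequenced in 6 libraries after adapter ligation, PCR and gel size selection, per the labels' protocols. The authors deposited 1 table of whole-number counts per mature miRNA, without normalization. Bowtie2, DESeq2 and GRCm38.p6 are named, without roles, per the submitters' processing notes. Annotation, molecular identifiers and handling of reads with several matches: not given in the sources used here. Columns were matched to samples by strain, age and replicate number. Totals ran from 5259528 to 6773829 counts. Library pairs within a strain differed by more than counting noise (chi-square over degrees of freedom 123 to 726), so none was a copy.

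Counts were fitted in R 4.3.3 with edgeR 4.0.16: filterByExpr (minimum count 10, minimum total 15), TMM scaling, a robust quasi-likelihood model of strain alone, Benjamini-Hochberg adjustment and a threshold of 0.05. The biological coefficient of variation was 35.1%. SEs come from the coefficient and its F statistic. The fit was tested on simulated data. Alternatives used other scalings and filters, DESeq2 1.42.0, limma-voom (limma 3.58.1), no robust dispersion, another prior count, a replicate block and each library left out. Wilson intervals cover counting error only. Sequences are from RefSeq (GRCm38.p6), positions from GENCODE M21 and folds from ViennaRNA 2.7.2.

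miR-31 and all lists of miRNAs were chosen with earlier results of these data known. Named were both miR-31 strands, all members of the lupus cell lists, members of other lists past the threshold or else abundant, the 5 nearest profiles and the neighbours in level. Predicted entries without a miRBase name were not named.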

Additional observations from a re-analysis of the deposited data

How the results depend on the processing

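Both miR-31 strands kept their direction in 17 of 17 alternatives, each within 1 SD of the libraries on the log2 scale, with ranges over the left-out libraries of -1.03 to -0.76 (5p) and -1.21 to -0.68 (3p). With the replicate block the values were -0.92 and -0.98, and the adjusted p of miR-155-5p was 0.0843. Same-numbered libraries did not deviate together (r = -0.34, 0.020 and -0.33), so the numbers do not pair them. The mean 5p share ran from 64.9% to 68.6% in C57BL/6 and from 64.3% to 69.7% in MRL/lpr over left-out libraries. The count of miRNAs that passed, 28 as reported, was 64 without a filter, 51 with DESeq2, 13 with the replicate block and 5 to 54 over left-out libraries: 15, 54 and 11 without C57BL/6 replicates 1, 2 and 3, and 5 without MRL/lpr replicate 3; the cause was not tested. With library size only, 24 were higher and 6 lower, against 19 and 9. The 6 lupus splenocyte partners of miR-31 gave 1 call as reported, 2 with RLE or upper-quartile scaling or TMM without the 10 most abundant miRNAs, 3 without a filter, with the 10 CPM filter or with DESeq2, 0 without robust dispersion, and 0 to 3 over left-out libraries. Calls of miR-155-5p were higher in MRL/lpr, and all others were of miR-127-3p or miR-379-5p, as lower. Without C57BL/6 replicate 3 and with the replicate block the 1 call was miR-379-5p (edgeR adjusted p = 0.0449 and 0.0413). Strains, Fas allele and disease are confounded, and 3 libraries a strain limit every spread given.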
